A study of Mus musculus with 6 samples.

Results

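The genes described here are 38 genes of autophagy, mitophagy and the lysosome, chosen by name: each row of the deposited gene table whose gene name equals one of the 38 symbols was taken, which gave 38 of 54532 rows. All 38 passed the filter on low counts, and they stand among 14867 genes tested. The set covers 8 steps: the ULK1 complex that starts autophagy, the lipid kinase complex and membrane supply, the conjugation enzymes, the ATG8 proteins, cargo receptors, mitophagy genes, the transcription factors TFEB and TFE3, and lysosomal proteins. Muscle tissue of Igf2 cKO mice (Mck-Cre+; Igf2f/f) was set against that of Control littermates (Mck-Cre-; Igf2f/f), with 3 RNA sequencing libraries per genotype. Both genotypes are on C57BL/6 and carry loxP sites around exon 2 of both Igf2 alleles, so the Cre transgene is the labelled difference. Igf2 encodes a secreted growth factor of the insulin family. Mck-Cre is driven by the muscle creatine kinase promoter, which is active in striated muscle fibres. Whether the other cells of the tissue keep the floxed gene intact was not measured here. The labels do not give which muscle was taken, nor the age or sex of the mice.

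In autophagy, a double membrane forms around cytoplasm, closes into an autophagosome and fuses with a lysosome, where acid hydrolases digest the content. Mitophagy is the same route taken by mitochondria, which are marked by receptors on their outer membrane or by the kinase PINK1. In skeletal muscle the pathway is known to be restrained by insulin and IGF signalling through AKT and mTORC1, which hold back ULK1 and keep TFEB and FoxO factors out of the nucleus, and both its loss and its excess are known to reduce muscle mass in mice.

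The 3 Igf2 cKO libraries held 16184371 to 17503334 gene counts, and the 3 Control libraries 16335647 to 17905203. The labels give the libraries as separate samples and say no more of their source, so p-values measure the spread between these samples. Muscle fibre genes dominated every library (Acta1, skeletal actin, averaged 2.32e+04 FPKM over the 6 libraries). Igf2 itself, the targeted gene, stood at 1.84, 2.29 and 2.48 CPM (counts scaled to library size) in the Igf2 cKO libraries, against 3.25, 2.41 and 2.55 CPM in the Control libraries (log2 fold change -0.31 ± 0.25 SE, adjusted p = 0.751), a count over the whole gene that does not separate the floxed exon. The summed CPM of 6 slow fibre markers was 329, 1738 and 357 in the Igf2 cKO libraries and 1060, 865 and 979 in the Control libraries. Igf2 cKO 2 thus lies above all Control libraries, and Igf2 cKO 1 and Igf2 cKO 3 lie below them all. Where leaving out Igf2 cKO 2 moves a difference described per library by over 1.5 times, the value without it is given. The summed CPM of 5 erythroid genes was 289 to 331 in the Igf2 cKO and 412 to 555 in the Control libraries, without overlap, though Slc4a1 among them was at or near 0. That of 6 muscle fibre genes was 68524 to 86975 in the Igf2 cKO and 88395 to 110349 in the Control libraries, likewise without overlap. Taken singly, only Ckm and Myh4 of the 6 did not overlap, both lower in Igf2 cKO. Acta1 and Ttn overlapped with log2 fold changes of -0.15 and -0.46, as did Des and Mb at 0.10 and 0.29. In edgeR, 0 of the 6 had an unadjusted p under 0.05. The summed CPM overlapped between the groups for 10 macrophage genes (421 to 596 in Igf2 cKO and 353 to 712 in Control libraries), 7 adipocyte genes (623 to 1525 in Igf2 cKO and 492 to 863 in Control), 5 fibroblast genes (3998 to 6245 in Igf2 cKO and 3191 to 6631 in Control), 5 endothelial genes (690 to 1126 in Igf2 cKO and 1020 to 1131 in Control) and 5 Schwann cell genes (167 to 751 in Igf2 cKO and 140 to 434 in Control). Among these, Kdr of the endothelial genes alone did not overlap, at 96.9, 226 and 157 CPM in Igf2 cKO and 230, 235 and 263 CPM in Control libraries. Its log2 fold change was -0.60 ± 0.26 SE (edgeR adjusted p = 0.493). In bulk tissue, fewer cells of a type and less RNA per cell cannot be told apart.

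None of the 38 genes differed between Igf2 cKO and Control muscle at an adjusted p under 0.05 in edgeR's quasi-likelihood test, in DESeq2 or in limma-voom. Over the whole table edgeR called 37 of 14867 genes (0.249%), and DESeq2 203 of 15090 (1.35%). At an unadjusted p under 0.05 edgeR picked 3 of the 38, Ulk1 and Tfe3 with lower and Atg3 with higher levels in Igf2 cKO muscle, against 9.93% of all genes tested. The looser cutoff named by the series (unadjusted p under 0.05 and more than 1 log2 unit of difference) picked 1.58% of all genes and 0 of the 38. The log2 fold changes of the 38 ran from -0.38 for Ulk1 to 0.25 for Tfeb, with 17 above and 21 below 0 and a median of -0.04, beside a median of 0.0038 over all genes tested.

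The intervals around these estimates were narrow. The 95% interval of every one of the 38 fold changes lay within a 2-fold difference in either direction, as did 78.9% of all genes tested. For 36 of the 38 it lay within 1.5-fold (55.8% of all genes), Ulk1 and Gabarapl1 being the exceptions. The lowest bound was a fold of 0.606, for Gabarapl1, and the highest a fold of 1.42, for Bnip3. These intervals are per gene and are not widened for the number of genes. The genes are well covered, with 25 of the 38 among the most abundant 25% of genes tested by mean CPM and mean CPM values from 13.9 to 644.

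The groups of 3 and 3 libraries did not overlap for 10 of the 38 genes, against 15.5% of all genes tested. In 7 of them every Igf2 cKO library was below every Control library (Ulk1, Atg13, Atg14, Wipi2, Bnip3l, Tfe3 and Ctsl, beside 7.67% of all genes), and in 3 every Igf2 cKO library was above (Atg3, Atg5 and Tfeb, beside 7.83%). By step, the ULK1 complex and the nucleation genes lay mostly below 0 (4 of 5 and 6 of 7 members) and the conjugation enzymes mostly above 0 (5 of 6), with medians of -0.14, -0.08 and 0.07 on the log2 scale. None of these steps held a called gene. Of all 14867 genes tested, 7547 lay above and 7320 below 0.

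**Figure D1:**
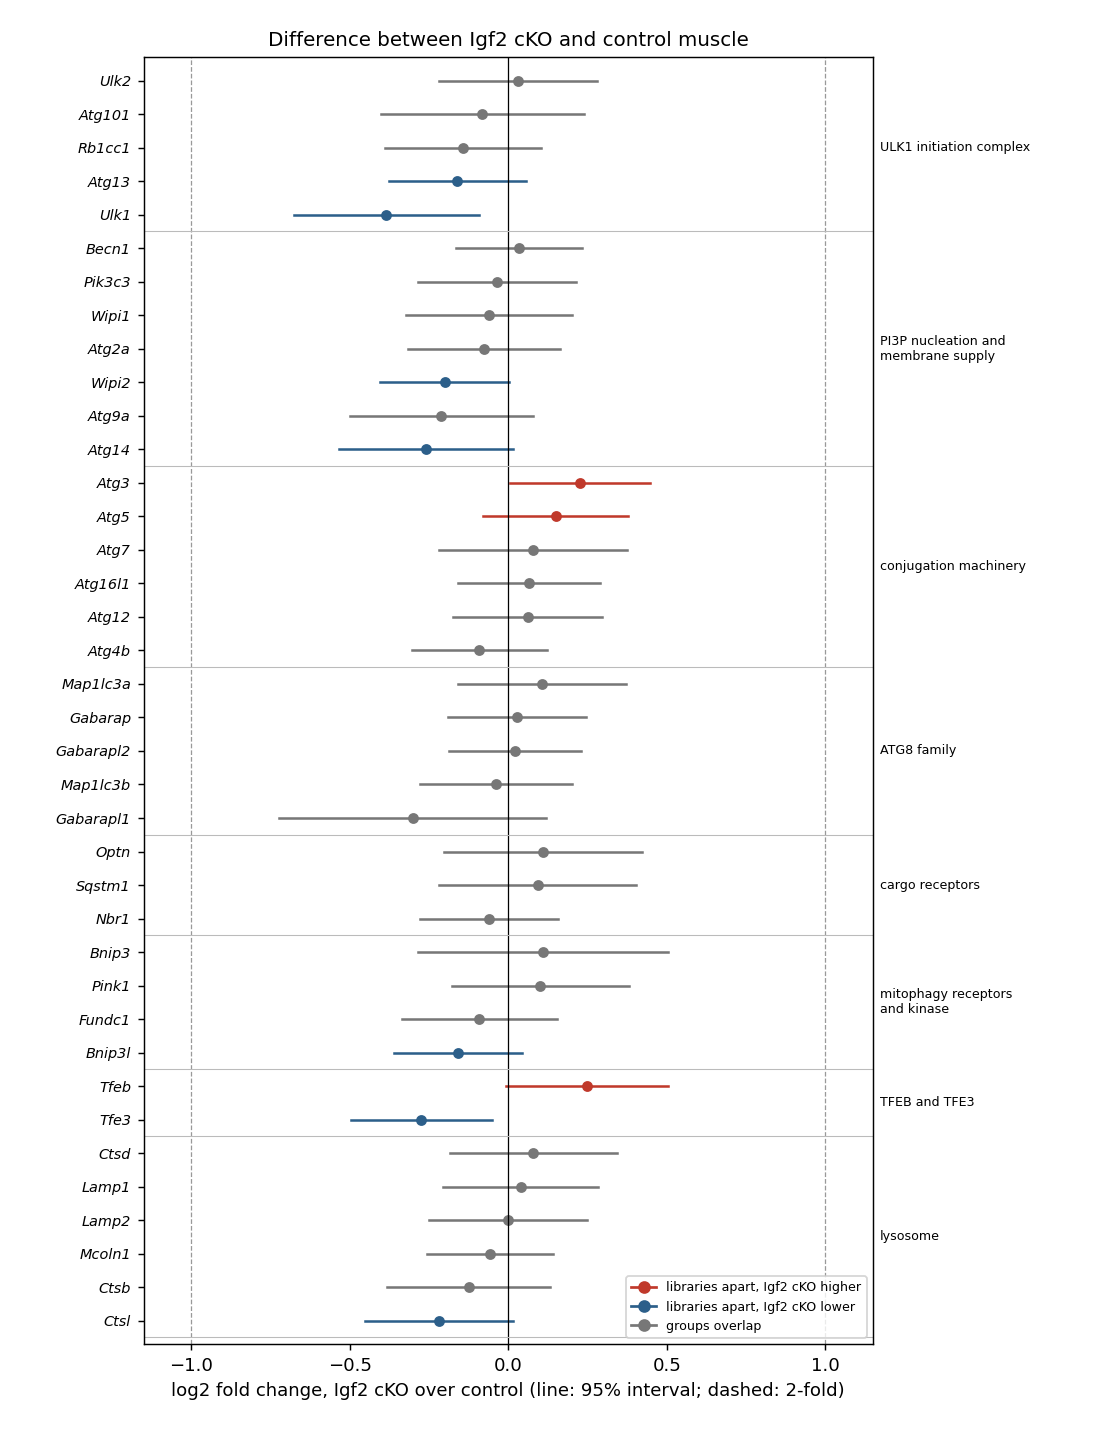
Log2 fold change (Igf2 cKO over Control) of each of the 38 genes on the horizontal axis, grouped by step. Lines are 95% intervals derived from the edgeR F test, and dashed lines mark a 2-fold difference. Red or blue marks genes whose Igf2 cKO libraries all lie above or below the Control libraries. The estimates run from -0.38 for Ulk1 to 0.25 for Tfeb, and none passes an adjusted p under 0.05.

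Levels of different genes can be compared per gene length, so the FPKM values that the authors deposited are used for that. Over the 6 libraries the median of the genes' mean FPKM was 17.1. Pink1, the mitochondrial kinase of mitophagy, was the highest at 240 FPKM, followed by the cargo receptor gene Sqstm1 (p62) at 186, the lysosomal protease gene Ctsd (cathepsin D) at 174 and the lysosomal membrane protein gene Lamp1 at 169. Map1lc3a, which encodes an LC3 protein, followed some way below at 124 FPKM. The lowest were Atg7, which encodes the E1-like enzyme that starts conjugation, at 2.43 FPKM, and Tfe3 at 2.56 FPKM. The genes' summed CPM was 5040 to 5287 in the Igf2 cKO libraries and 5030 to 5247 in the Control libraries, so the total over the 38 genes overlapped between the genotypes.

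**Figure D2:**
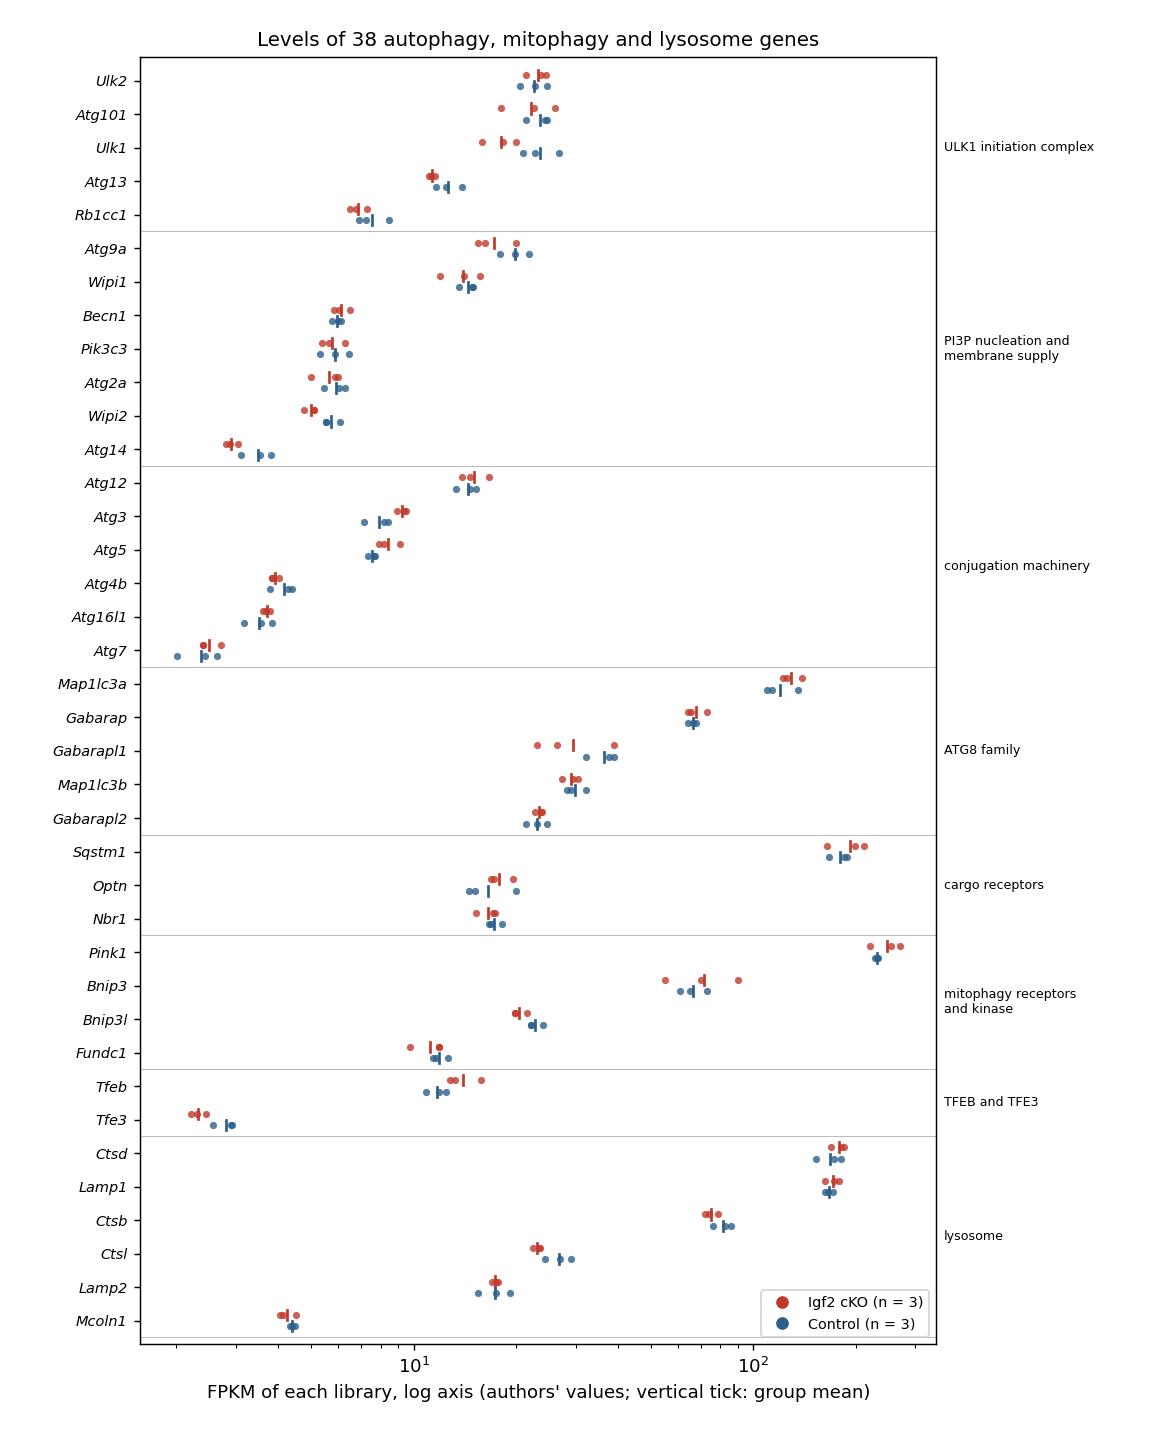
FPKM deposited by the authors for each of the 38 genes in each library, on a log axis, Igf2 cKO in red above Control in blue, grouped by step, with a tick at each group mean. Pink1, Sqstm1 and Ctsd are the highest and Atg7 and Tfe3 the lowest, and the spread between genes is far wider than that between libraries of a gene.

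The ULK1 complex receives the signals of mTORC1 and AMPK and switches autophagy on. Ulk1 (ENSMUSG00000029512, chromosome 5, 110784488 to 110810097, minus strand, GRCm38), the kinase itself, stood at 104, 119 and 130 CPM in the Igf2 cKO libraries, against 148, 138 and 175 CPM in the Control libraries. Every Igf2 cKO library was below every Control library (log2 fold change -0.38 ± 0.13 SE, 95% interval -0.68 to -0.09, adjusted p = 0.36), and leaving out any 1 library kept the estimate between -0.47 and -0.28. Atg13 (ENSMUSG00000027244, chromosome 2, 91674618 to 91710576, minus strand), the regulatory subunit that mTORC1 phosphorylates, stood at 49.8, 48.7 and 50.6 CPM in Igf2 cKO and 51.3, 54.6 and 60.8 CPM in Control libraries. Its groups lie side by side without overlap (-0.16 ± 0.09 SE, adjusted p = 0.631), and the log2 fold change was -0.0901 without Control 3. Ulk2, the second ULK kinase, had a log2 fold change of 0.03, Rb1cc1 (FIP200, the scaffold) of -0.14 and Atg101 (the partner of Atg13) of -0.08.

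Per gene length, the kinases Ulk1 and Ulk2 were expressed at similar levels, 20.8 and 22.9 FPKM over all libraries. The ratio of Ulk1 to Ulk2 FPKM was 0.669, 0.856 and 0.815 in the Igf2 cKO libraries and 0.998, 1.03 and 1.08 in the Control libraries. The groups do not overlap, but this ratio was chosen after the values were seen and is given as a description.

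The nucleation step makes the lipid PI3P on the forming membrane and brings in lipid. Atg14 (ENSMUSG00000037526, chromosome 14, 47540893 to 47570649, minus strand), which directs the lipid kinase complex to autophagy, stood at 12.6, 12.2 and 13.1 CPM in Igf2 cKO, against 16.6, 13.5 and 15.3 CPM in Control libraries (log2 fold change -0.26 ± 0.12 SE, 95% interval -0.53 to 0.01, adjusted p = 0.528). Wipi2 (ENSMUSG00000029578, chromosome 5, 142627698 to 142670588, plus strand), a PI3P reader that recruits the conjugation machinery, stood at 50.6, 54.0 and 53.6 CPM in Igf2 cKO and 64.7, 58.7 and 58.5 CPM in Control libraries (-0.20 ± 0.09 SE, adjusted p = 0.508). For both genes all 3 Igf2 cKO libraries were below all 3 Control libraries. The other members were Becn1 (the Beclin 1 subunit, 0.03), Pik3c3 (the VPS34 kinase, -0.04), Wipi1 (-0.06), the lipid transfer gene Atg2a (-0.08) and the scramblase gene Atg9a (-0.21), as log2 fold changes. The Atg9a value is uncertain, since the opposite-strand gene Ankzf1 overlaps it with a count of 9.05% of its own and the sources used here do not say whether counting used strand.

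The conjugation enzymes attach ATG8 proteins to the lipid of the membrane. Atg3 (ENSMUSG00000022663, chromosome 16, 45158785 to 45188538, plus strand), the E2-like enzyme that carries out the last transfer, stood at 29.9, 28.4 and 29.9 CPM in Igf2 cKO, against 22.7, 26.0 and 26.7 CPM in Control libraries (log2 fold change 0.23 ± 0.10 SE, 95% interval 0.01 to 0.45, adjusted p = 0.491). Atg5 (ENSMUSG00000038160, chromosome 10, 44268358 to 44364291, plus strand), which joins ATG12 and ATG16L1 in the complex that sets the site of transfer, stood at 18.7, 19.3 and 21.5 CPM in Igf2 cKO and 18.2, 18.1 and 17.3 CPM in Control libraries (0.15 ± 0.10 SE, adjusted p = 0.685, and 0.0884 without Igf2 cKO 3). All Igf2 cKO libraries lie above all Control libraries for both genes. Among the others, Atg7 had a log2 fold change of 0.08, Atg12 (the ubiquitin-like partner of ATG5) of 0.06, Atg16l1 of 0.07 and Atg4b (the protease that primes ATG8 proteins) of -0.09. Thap4, on the opposite strand, overlaps Atg4b with a count of 64.7% of that of Atg4b, so its value is uncertain.

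The ATG8 proteins coat the autophagosome and bind cargo receptors. Over all libraries Map1lc3a made up 44.9% of the summed FPKM of the family's 5 genes, Gabarap 24.2%, Gabarapl1 11.8%, Map1lc3b 10.7% and Gabarapl2 8.42%. Gabarapl1 (ENSMUSG00000030161, chromosome 6, 129533160 to 129542346, plus strand) stood at 47.0, 78.9 and 53.2 CPM in the Igf2 cKO libraries, against 65.4, 78.9 and 76.4 CPM in the Control libraries (log2 fold change -0.30 ± 0.18 SE, 95% interval -0.72 to 0.12, adjusted p = 0.649). The groups overlap through Igf2 cKO 2, the library with the high slow fibre sum, and the other Igf2 cKO libraries lie below all Control libraries. Without Igf2 cKO 2 the log2 fold change was -0.55 (adjusted p = 0.151), without Igf2 cKO 1 it was -0.16, and the part of fibre type in this was not tested. Map1lc3a (ENSMUSG00000027602, chromosome 2, 155276297 to 155278073, plus strand) stood at 146, 165 and 148 CPM in Igf2 cKO and 130, 135 and 161 CPM in Control libraries, overlapping (0.11 ± 0.12 SE, adjusted p = 0.833), and its log2 fold change was 0.0479 without Igf2 cKO 2 and 0.21 without Control 3. Map1lc3b (LC3B), Gabarap and Gabarapl2 had log2 fold changes of -0.04, 0.03 and 0.02. The opposite-strand gene Zcchc14 overlaps Map1lc3b with 31.1% of its count.

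Cargo receptors link ubiquitin-tagged material to ATG8 proteins. Optn (optineurin, ENSMUSG00000026672, chromosome 2, 5020642 to 5064051, minus strand) stood at 65.2, 73.9 and 63.4 CPM in Igf2 cKO, against 54.9, 57.3 and 75.7 CPM in Control libraries, overlapping because of Control 3 (log2 fold change 0.11 ± 0.14 SE, adjusted p = 0.861). Without Control 3 the log2 fold change was 0.27 (adjusted p = 0.501), and without Igf2 cKO 2 it was 0.0385. Sqstm1, which held 84.4% of the summed FPKM of the 3 receptor genes, stood at 720, 558 and 668 CPM in Igf2 cKO and 564, 623 and 637 CPM in Control libraries. The Igf2 cKO libraries hold both the lowest and the highest value (0.09 ± 0.14 SE, adjusted p = 0.886). The log2 fold change of Sqstm1 was 0.19 without Igf2 cKO 2, 0.0119 without Igf2 cKO 1 and 0.0409 without Control 1. Nbr1, a receptor of like build, had a log2 fold change of -0.06.

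The mitophagy genes showed no called difference either. Bnip3l (NIX, ENSMUSG00000022051, chromosome 14, 66985239 to 67008877, minus strand), a receptor on the outer mitochondrial membrane that also clears mitochondria from maturing red cells, stood at 77.5, 77.3 and 83.4 CPM in Igf2 cKO, against 86.2, 93.6 and 86.1 CPM in Control libraries (log2 fold change -0.16 ± 0.09 SE, 95% interval -0.36 to 0.04, adjusted p = 0.614). The groups do not overlap, as for the erythroid genes given above, and the part of erythroid RNA in it was not tested. A pseudogene row, Bnip3l-ps, held up to 114 counts in a library, so reads of Bnip3l may be split. Fundc1 (ENSMUSG00000025040, chromosome X, 17556564 to 17572325, minus strand), a mitophagy receptor known for its role in hypoxia, stood at 28.2, 23.1 and 27.9 CPM in Igf2 cKO and 27.6, 27.1 and 29.8 CPM in Control libraries, overlapping (-0.09 ± 0.11 SE, adjusted p = 0.847). Igf2 cKO 2 is the lowest, and the log2 fold change of Fundc1 was -0.00578 without it and -0.14 without Igf2 cKO 1.

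Bnip3, a hypoxia-induced mitophagy receptor that FoxO3 is known to induce in muscle, stood at 126, 206 and 159 CPM in Igf2 cKO and 139, 149 and 167 CPM in Control libraries (log2 fold change 0.11 ± 0.17 SE, adjusted p = 0.896). It was high in Igf2 cKO 2, and without that library the log2 fold change was -0.09, whereas without Igf2 cKO 1 it was 0.27. Pink1 stood at 685, 595 and 722 CPM in Igf2 cKO and 627, 615 and 623 CPM in Control libraries, where Igf2 cKO 2 lies below and the other Igf2 cKO libraries above all Control libraries (0.10 ± 0.12 SE, adjusted p = 0.853). The log2 fold change of Pink1 was 0.18 without Igf2 cKO 2 and 0.0405 without Igf2 cKO 3. Relative to the mean of the other Igf2 cKO libraries, Igf2 cKO 2 differed by more than 0.3 on the log2 scale for 4 of the 38 genes, Gabarapl1 at 0.66, Bnip3 at 0.54, Atg101 at -0.43 and Sqstm1 at -0.31. Igf2 cKO 1 also passed that size for 4 genes, and Igf2 cKO 3 for 1. The median absolute deviation over the 38 genes was 0.098, 0.074 and 0.093 for the Igf2 cKO libraries. For the Control libraries it was 0.139, 0.072 and 0.130. Bnip3, Pink1, Sqstm1 and Tfeb are given per library after their values were seen.

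**Figure D3:**
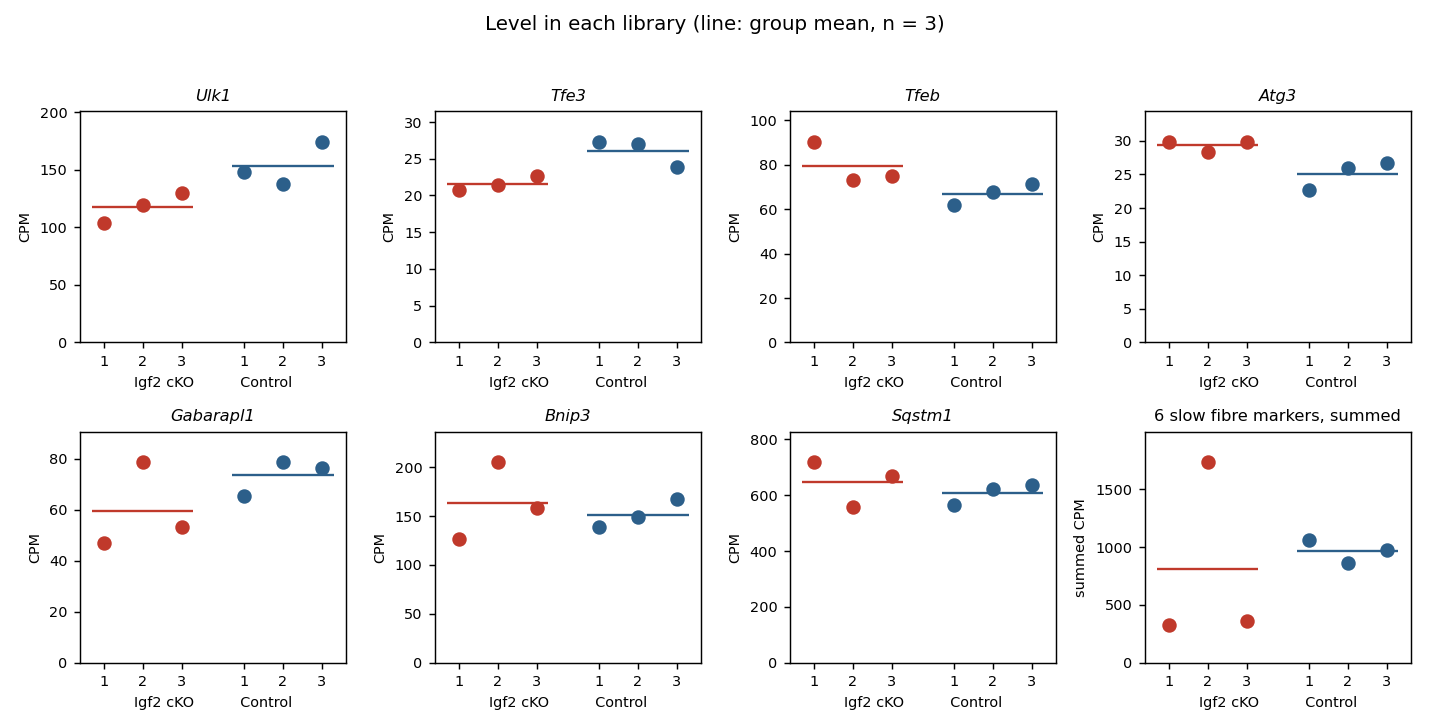
CPM per library, Igf2 cKO (red) left of Control (blue), for Ulk1, Tfe3, Tfeb, Atg3, Gabarapl1, Bnip3 and Sqstm1 and for the summed slow fibre markers, each axis starting at 0. The groups do not overlap for Ulk1, Tfe3, Tfeb and Atg3, whereas Igf2 cKO 2 holds the highest Igf2 cKO value of Gabarapl1, Bnip3 and the slow fibre sum.

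TFEB and TFE3 are related transcription factors that enter the nucleus when mTORC1 is off and switch on lysosomal and autophagy genes. Tfe3 (ENSMUSG00000000134, chromosome X, 7762560 to 7775202, plus strand) stood at 20.7, 21.4 and 22.7 CPM in the Igf2 cKO libraries, against 27.3, 27.1 and 23.9 CPM in the Control libraries (log2 fold change -0.27 ± 0.10 SE, 95% interval -0.50 to -0.05, adjusted p = 0.391). Tfeb (ENSMUSG00000023990, chromosome 17, 47737030 to 47792419, plus strand) stood at 90.5, 73.0 and 75.1 CPM in Igf2 cKO and 62.0, 67.8 and 71.2 CPM in Control libraries (0.25 ± 0.11 SE, 95% interval -0.01 to 0.50, adjusted p = 0.521). Neither gene's groups overlap, and the estimates have opposite signs. Without Igf2 cKO 1 the log2 fold change of Tfeb was 0.15.

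Among the family's 4 genes (Tfeb, Tfe3, Mitf and Tfec), Tfeb made up 78.8, 72.1 and 72.7% of the summed FPKM in the Igf2 cKO libraries, against 64.0, 67.1 and 68.4% in the Control libraries. The ratio of Tfeb to Tfe3 FPKM was 7.14, 5.57 and 5.40 in Igf2 cKO and 3.70, 4.09 and 4.86 in Control libraries, without overlap. Mitf, another factor of the family that is outside the set of 38, stood at 12.4, 16.1 and 15.5 CPM in Igf2 cKO and 19.2, 18.0 and 19.7 CPM in Control libraries (log2 fold change -0.37 ± 0.13 SE, adjusted p = 0.372). These shares and ratios were chosen after the values were seen and have no test.

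TFEB and TFE3 are known to bind the E-box CACGTG, most often in the form TCACGTG, in promoters of lysosomal and autophagy genes. Promoter sequences of RefSeq (GRCm38.p6, 250 bases before to 50 after a listed start) were matched for 30 of the 38 genes. For 25 of the 30, a window read into a GENCODE M21 transcript of the gene in the same orientation. A listed start can lie inside the gene, as for Atg7, whose window begins at 114670846 and whose gene begins at 114643097. Tfeb, Tfe3 and Nbr1 have more than 1 window, and a match in any window counted. Both strands were searched, and TCACGTG contains CACGTG, so the counts overlap. No promoter was matched for Pik3c3, Ctsb, Rb1cc1, Bnip3l, Atg16l1, Map1lc3a, Atg12 and Becn1. CACGTG was found in 9 of the 30 (30%), beside 8.09% of all 27025 genes in the RefSeq promoter set, and TCACGTG in 6 of the 30 (20%), beside 4.29%. That background was not limited to genes tested here, whereas all 38 genes were. The FoxO motif GTAAACA was in 0 of the 30, beside 4.05%. The stretches around the matches are shown for a lysosomal membrane protein, a protease, a channel and 3 autophagy genes, because these are the genes whose promoters hold TCACGTG. Capitals mark the E-box, with its T (or, in reverse, A) where it is there. A match is a description of the letters, not evidence of binding.
Lamp1, chr8:13159080-13159171, plus strand: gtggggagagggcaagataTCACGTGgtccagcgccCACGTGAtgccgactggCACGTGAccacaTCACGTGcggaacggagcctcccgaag
Mcoln1, chr8:3500428-3500499, plus strand: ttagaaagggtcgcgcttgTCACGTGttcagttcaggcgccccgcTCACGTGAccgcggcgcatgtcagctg
Ctsd, chr7:142387900-142387945, minus strand: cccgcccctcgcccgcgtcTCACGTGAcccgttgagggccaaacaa
Ctsd, chr7:142388047-142388077, minus strand: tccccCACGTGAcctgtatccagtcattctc
Atg3, chr16:45158715-45158783, plus strand: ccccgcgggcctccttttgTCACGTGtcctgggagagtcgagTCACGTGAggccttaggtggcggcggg
Atg14, chr14:47568410-47568455, minus strand: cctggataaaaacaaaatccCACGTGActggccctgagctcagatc
Atg7, chr6:114670944-114670989, plus strand: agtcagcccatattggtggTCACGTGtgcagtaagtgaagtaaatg

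The Lamp1 stretch holds 4 E-boxes, each with the flanking T on 1 strand, between 61 and 15 bases before the start. Those of Mcoln1 and Atg3 hold 2 E-boxes each, of which 1 is flanked on both sides, so that TCACGTG reads 3 times over both strands. Atg5, Bnip3 and Ctsl have CACGTG without the flanking T. The log2 fold changes of the 6 genes with TCACGTG were 0.04 for Lamp1, -0.06 for Mcoln1, 0.08 for Ctsd, 0.23 for Atg3, -0.26 for Atg14 and 0.08 for Atg7, on both sides of 0.

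Lysosomal genes encode the membrane and the proteases that complete digestion. Ctsl (cathepsin L, a cysteine protease known to be induced in wasting muscle, ENSMUSG00000021477, chromosome 13, 64359337 to 64370890, minus strand) stood at 154, 146 and 152 CPM in Igf2 cKO, against 190, 177 and 159 CPM in Control libraries. All Igf2 cKO libraries lie below all Control libraries (log2 fold change -0.22 ± 0.10 SE, 95% interval -0.45 to 0.02, adjusted p = 0.534). Ctsb (cathepsin B, ENSMUSG00000021939, chromosome 14, 63122462 to 63145923, plus strand) stood at 440, 452 and 475 CPM in Igf2 cKO and 524, 504 and 463 CPM in Control libraries, overlapping (-0.12 ± 0.11 SE, adjusted p = 0.785). Fdft1, on the opposite strand, overlaps Ctsb with 15.3% of its count. Ctsd held 62.7% of the summed FPKM of the 3 cathepsin genes and had a log2 fold change of 0.08. Lamp1 and Lamp2, the main lysosomal membrane proteins, had log2 fold changes of 0.04 and -0.00, and Mcoln1 (the TRPML1 calcium channel) of -0.06. Macrophages, which are rich in lysosomes, had summed markers that overlapped between the genotypes, with 9 of 10 markers below 0 and a median log2 fold change of -0.15, and their part in the cathepsin values was not tested.

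A further 151 genes of the pathway were listed, of which 144 were tested, and 0 were called by edgeR. At an unadjusted p under 0.05 it picked 12, of which 8 were lower and 4 higher in Igf2 cKO muscle, beside 9.93% of all genes tested. The groups did not overlap for 20 of the 144 (13.9%), 8 higher and 12 lower in Igf2 cKO, beside 15.5% of all genes tested, and the median log2 fold change was -0.04. Of the 29 further core and fusion genes the median was -0.05. DESeq2 called 1 of all these genes, beside 203 of 15090 genes (1.35%) over the whole table. The gene was Zfyve1 (DFCP1, a PI3P-binding protein of the membrane where autophagosomes form), with lower levels in Igf2 cKO muscle. Zfyve1 stood at 39.4, 38.4 and 36.2 CPM in Igf2 cKO, against 53.8, 49.8 and 54.5 CPM in Control libraries (log2 fold change -0.47 ± 0.09 SE, edgeR adjusted p = 0.111, DESeq2 adjusted p = 0.0122). The groups lie well apart, and the call depends on the tool and on the low-count filter (edgeR adjusted p = 0.0418 with no such filter). Vps39, a subunit of the HOPS tether that joins autophagosomes and lysosomes, differed by -0.29 ± 0.09 (log2 fold change and SE, adjusted p = 0.295).

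Of 18 subunits tested of the V-ATPase, the proton pump that acidifies the lysosome, 14 had a log2 fold change above 0, with a median of 0.06. The summed CPM of all 21 listed subunits, 3 of them too low to be tested, was 1111, 1075 and 1130 in Igf2 cKO and 1052, 1073 and 1064 in Control libraries. The lowest Igf2 cKO sum and the highest Control sum, 1075 and 1073, nearly touch. Atp6v0e2 stood at 56.3, 55.3 and 54.5 CPM in Igf2 cKO and 43.8, 43.9 and 49.7 CPM in Control libraries (0.27 ± 0.09 SE, adjusted p = 0.356), and Atp6v0b at 77.0, 71.8 and 72.8 CPM in Igf2 cKO, against 58.2, 66.2 and 62.6 CPM in Control libraries (0.24 ± 0.09 SE, adjusted p = 0.417). Of 41 further lysosomal hydrolases, 34 had a log2 fold change below 0, with a median of -0.10. Over all genes tested, 7547 of 14867 lay above 0 and 7320 below 0. The summed CPM of the 41 hydrolases overlapped, at 2670, 2614 and 2707 in Igf2 cKO and 2834, 2824 and 2658 in Control libraries. Taken singly, the groups did not overlap for 1 of the 41 (2.44%), beside 15.5% of all genes tested. Ctss (cathepsin S, abundant in macrophages) stood at 19.4, 19.8 and 16.9 CPM in Igf2 cKO and 29.5, 28.8 and 19.7 CPM in Control libraries (-0.48 ± 0.16 SE, adjusted p = 0.361), and Dnase2a (the lysosomal DNase) differed by -0.57 ± 0.21 (log2 fold change and SE, adjusted p = 0.426). Both hydrolases lie beside the macrophage values given above, whose part was not tested.

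Among 22 further lysosomal membrane genes the median was -0.01. Npc1, a cholesterol exporter, differed by -0.47 ± 0.14 (log2 fold change and SE, adjusted p = 0.311), or by -0.30 without Control 3, and Ostm1, the partner of the chloride channel ClC-7, by -0.27 (adjusted p = 0.532). Among 15 upstream regulators, with a median of 0.03, Foxo1, a factor that drives atrophy and autophagy genes in muscle, stood at 44.0, 52.2 and 44.4 CPM in Igf2 cKO and 38.8, 38.8 and 38.1 CPM in Control libraries (0.28 ± 0.10 SE, adjusted p = 0.384), without overlap. Among 19 further cargo and mitophagy genes the median was 0.02. Calcoco1 (an ER-phagy receptor) differed by -0.18 (log2 scale, adjusted p = 0.593), and Retreg1 (FAM134B, an ER-phagy receptor) stood at 157, 278 and 191 CPM in Igf2 cKO and 215, 296 and 310 CPM in Control libraries, overlapping through Igf2 cKO 2 (-0.39 ± 0.22 SE, adjusted p = 0.619). The log2 fold change of Retreg1 was -0.66 without Igf2 cKO 2 (adjusted p = 0.227) and -0.22 without Igf2 cKO 1.

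**Figure D4:**
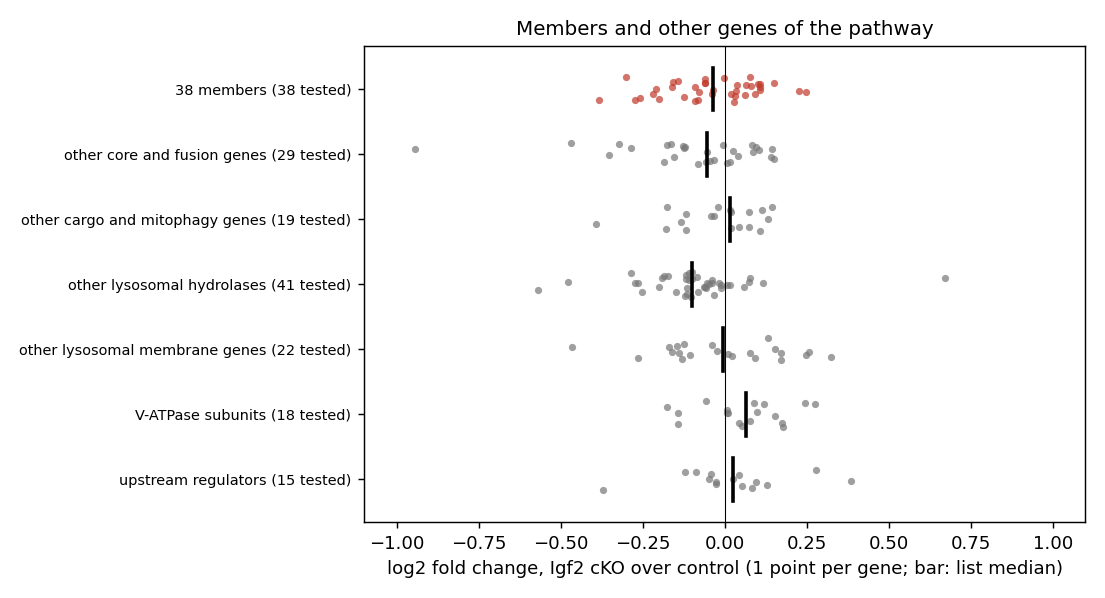
Log2 fold change (Igf2 cKO over Control) of the 38 genes and of the further pathway genes, each point 1 gene and each row 1 list, with the median as a line. The hydrolases lie mostly below 0 (34 of 41) and the V-ATPase subunits mostly above 0 (14 of 18). Of all 14867 genes tested, 7320 lie below and 7547 above 0. The summed CPM of the hydrolases overlapped between the genotypes. The outermost points are Atg9b at -0.95 (3 to 25 counts per library) and Acp5 at 0.67, neither called and both named after their values were seen.

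The authors also deposited 3 comparisons, each of 1 Igf2 cKO with 1 same-numbered Control library. In the authors' deposited table, 5 of the 38 genes were higher in all 3 comparisons (Atg3, Atg5, Tfeb, Lamp1 and Ctsd), 9 lower in all 3 (Ulk1, Rb1cc1, Atg13, Atg14, Wipi2, Atg9a, Bnip3l, Tfe3 and Ctsl) and 24 mixed, with log2 fold changes between -0.52 and 0.55. The adjusted p in the authors' deposited table was 1 for all 38 genes. These comparisons come from the same 6 libraries as the values above and add no independent support. The share of all genes with the same sign in all 3 was not counted, so the counts of the 38 have no background beside them.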

How the data were processed

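RNA of muscle tissue was sequenced on an Illumina NovaSeq, per the labels' protocols. The sources used here name no aligner, counter, strand setting or build; the coordinates of 37 of the 38 genes equal those of GENCODE M21 (GRCm38). The deposited table of the authors holds raw counts per gene and FPKM per library, per the file headers. The authors' pairwise log2 fold changes and p-values, deposited in the same table, compare 1 library with 1, per the file headers. A further 6 columns of values per library, of unstated scale, were not used.

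Counts were tested with edgeR 4.0.16 in R 4.3.3: TMM factors, filterByExpr, glmQLFit and glmQLFTest on genotype, with Benjamini-Hochberg adjustment over all 14867 genes tested and a threshold of 0.05. CPM values use TMM library sizes. DESeq2 1.42.0, limma-voom (limma 3.58.1), other scalings, filters and thresholds, a replicate block and leaving out each library were alternatives. The test script was checked on simulated data. The precision is that of 3 libraries per genotype.

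The 38 genes, the further pathway lists and the marker lists were chosen with earlier results of these data known. Values per library are given for the members with the smallest p in each step (2, or 1 in steps of 2 or 3 members), and likewise 2 genes of each further list are named. RefSeq promoters were searched for motifs on both strands. Protein sequences were not analysed here.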

Additional observations from a re-analysis of the deposited data

How the results depend on the processing

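None of the 38 genes was called in any of 14 alternative fits, nor at an adjusted p under 0.1 or by the rule the series states; the lowest adjusted p of any was 0.151 (Gabarapl1 without Igf2 cKO 2). Their median log2 fold change was -0.04 and lay between -0.07 and 0.01 when 1 library was left out. Over the whole table, the 37 calls became 282 with no low-count filter, 203 with DESeq2, 62 at an adjusted p under 0.1 and 235 by the rule of the series. Leaving out 1 library gave 8 (without Control 1) to 68 (without Igf2 cKO 2) calls. Of the further pathway genes, 1 (Zfyve1) was called with no low-count filter and 1 (Zfyve1) with DESeq2, against 0 otherwise. The cause was not tested. With the replicate number as a block, 35 genes were called over the whole table, 0 of the 38, and their median was -0.04. Deviations of same-numbered libraries from their group means correlated at 0.163, 0.058 and -0.043, and those of differently numbered libraries at -0.183 to 0.122. With 3 libraries per genotype, these values cannot show whether the numbers pair the samples. Of the 38, 25 kept their sign in all 14 fits. Lamp2, at -0.00, became 0.00158 with DESeq2, 0.00747 with limma-voom and 0.00434 with the block. Leaving out 1 library gave log2 fold changes on both sides of 0 for 13 genes: Ulk2 -0.0455 to 0.099, Atg101 -0.22 to 0.0473, Becn1 -0.00827 to 0.0662, Pik3c3 -0.10 to 0.0388, Wipi1 -0.16 to 0.036, Atg7 -0.0233 to 0.17, Atg12 -0.0137 to 0.12, Atg16l1 -0.00247 to 0.12, Map1lc3b -0.079 to 0.00929, Gabarap -0.0332 to 0.0608, Gabarapl2 -0.0328 to 0.0742, Bnip3 -0.0896 to 0.27 and Lamp2 -0.0787 to 0.077. The other scalings moved the median of all genes by at most 0.0157. With 3 libraries per genotype, the precision of each difference is that of its 95% interval.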
